A study of Homo sapiens with 24 samples.

Results

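The response of control LNCaP cells to dihydrotestosterone (DHT) was measured by RNA sequencing in 6 of the 24 samples of the series, the 3 libraries titled LN_NTC_D against the 3 titled LN_NTC_VC, chosen by their titles. LNCaP is a human prostate cancer line that depends on androgen for growth. The DHT-treated NTC cells received 1 nM DHT for 24 h and the vehicle-treated NTC cells received vehicle for the same time, both in medium with charcoal-stripped serum, after 24 h in stripped serum alone and 48 h in medium with full serum. Both groups carried a lentiviral hairpin described as non-targeting or scrambled, delivered at a multiplicity of infection of 10, and were stable puromycin-resistant clones selected with 1 and kept in 0.5 μg/ml puromycin. Any effect of the hairpin, the selection or the clone is thus present on both sides. Beside them stand 3 libraries of NTC cells given 1 nM DHT with 10 µM enzalutamide, an antagonist of the androgen receptor, and 3 DHT and 3 vehicle libraries of cells with a hairpin against SIRT1 that the labels call 10 (knockdown 10). Nothing in the labels says whether the 3 libraries of a group came from separate cultures, so the p-values measure the spread between these libraries, which may be technical. Of 23207 genes listed, 14558 passed a filter on low counts and were tested, and all of these are the members described here.

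DHT binds the androgen receptor in the cytoplasm, and the complex moves to the nucleus and binds DNA at enhancers and promoters, many of them opened by FOXA1. In luminal prostate cells the receptor drives genes of secretion, among them the kallikrein proteases of seminal fluid, and genes of lipid synthesis, while others are repressed. In androgen-dependent cancer cells, androgen also allows passage from G1 into S phase.

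The DHT libraries held 32952609, 29327338 and 28972178 counts and the vehicle libraries 30097929, 27981001 and 32313623. In both groups the library numbered 1 stood apart from the other two. The chi-square per gene between DHT libraries was 14.0 and 9.79 for pairs with library 1 and 3.78 for libraries 2 and 3, and between vehicle libraries it was 10.76 and 11.46 against 4.29. Counts of genes are therefore also given without the libraries numbered 1 for the lists that changed most and wherever leaving those libraries out moved a count by over 1.5 times. The line's own markers were present: all 14 luminal genes listed reached 1 TPM (transcripts per 1000000 transcripts), with summed levels of 3480 to 3520 TPM under DHT and 3380 to 3590 TPM under vehicle. Of 17 markers of basal cells or other prostate lines, 4 reached 1 TPM under DHT and 5 under vehicle, with sums of 24.8 to 26.9 TPM under DHT and 17.9 to 20.9 TPM under vehicle, EGFR giving the most, and TP63 and IL6 were listed at 0 in both groups. The basal sums did not overlap between the groups, and their part in the results was not tested. Of 14 fibroblast markers 5 reached 1 TPM, mainly VIM, summing to 28.5 to 52.5 TPM under DHT and 32.7 to 63.2 TPM under vehicle, with COL1A2, DCN and POSTN at 0, and of 16 leukocyte and endothelial markers 3 did, summing to 9.25 to 10.8 TPM under DHT and 9.37 to 9.81 TPM under vehicle, with CD3E, MS4A1 and CDH5 at 0. SIRT1, the deacetylase that the other hairpin targets, stood at 46.6, 51.0 and 50 CPM (counts per 1000000 counts) in the DHT libraries and 56.1, 58.5 and 56.5 CPM in the vehicle libraries, against means of 15.6 and 19.5 CPM in the DHT and vehicle libraries of knockdown 10. Its change between DHT and vehicle in NTC cells missed the threshold (log2 fold change -0.21, edgeR adjusted p = 0.0761) and passed it with the replicate number as a block (adjusted p = 0.00897), a fit in which 22.2% of all tested genes rose and 18% fell. It also passed with upper-quartile scaling and in the fits of 6 and of 9 libraries.

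DHT changed 4352 of the 14558 genes (29.9%) at an adjusted p under 0.05, edgeR's quasi-likelihood test with Benjamini-Hochberg adjustment, which is what "rose", "fell" and "called" mean throughout. Of these, 2529 rose, 17.4% of all tested genes, and 1823 fell, 12.5%. Most changes were small, with a median log2 fold change of 0.38 among genes that rose and -0.35 among genes that fell. A change of at least 2-fold was called upward for 377 genes (2.59%) and downward for 148 (1.02%), and one of at least 4-fold for 44 upward and 12 downward. Of the genes that rose, 2491 had their 3 DHT libraries all above the 3 vehicle libraries, as had 24.7% of all tested genes, and of those that fell 1768 had them all below, as had 21.1% of all tested genes. Without the libraries numbered 1 the counts were 2094 and 1481, of which 356 and 121 were 2-fold. The balance between the directions depended on scaling: with upper-quartile scaling, which moved the median of all genes by -0.056, 1979 genes rose and 2600 fell, so that 43.2% of calls rose in place of 58.1%. Small shifts shared by many genes are thus of uncertain direction, and the direction of a gene list is given with its count under that scaling where it turned.

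The genes that rose held 22.03%, 21.2% and 21.58% of all counts in the DHT libraries and 16.33%, 16.24% and 16.64% in the vehicle libraries. The genes that fell held 11.9%, 12.71% and 12.53% of counts under DHT and 15.21%, 15.78% and 15.61% under vehicle. These shares follow from how the genes were chosen and describe the size of the response. In the DHT plus enzalutamide libraries, which entered the fit only through the shared spread, the genes that rose held 16.43%, 16.41% and 16.64% of counts and the genes that fell 15.26%, 15.52% and 15.52%, within or close to the range of the vehicle libraries. Divided by level into 5 equal bins, 12.8% of the genes of the lowest bin were called and between 32.0% and 35.7% of each of the other bins. The lowest bin nevertheless held 102 of the 148 genes that fell 2-fold and 86 of the 377 that rose 2-fold.

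**Figure D1:**
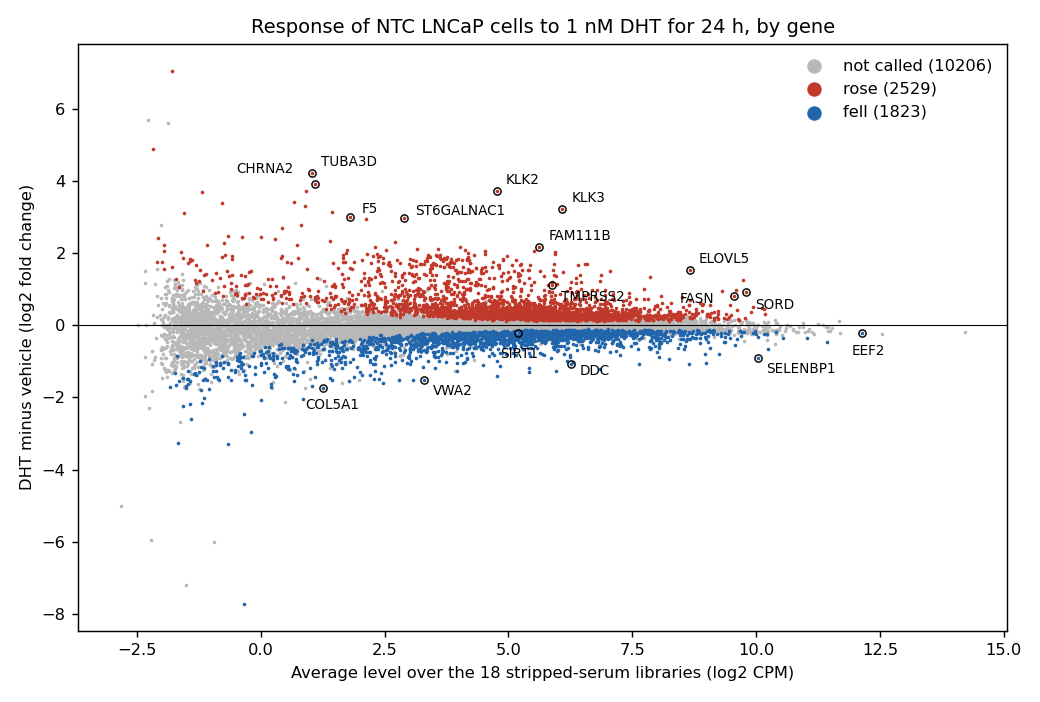
Each point is 1 of 14558 tested genes, with its average level over the 18 stripped-serum libraries (log2 CPM) on the horizontal axis and its log2 fold change, DHT minus vehicle in NTC cells, on the vertical axis. Genes that rose are red, genes that fell blue and others grey, and 2529 genes lie in red against 1823 in blue, with the circled KLK2 and KLK3 high among the genes that rose.

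Among the largest rises were those of KLK3 and KLK2, kallikrein proteases of the prostate, KLK3 encoding prostate-specific antigen. KLK3 had 256, 208 and 239 CPM in the DHT libraries and 24.2, 23.5 and 27.4 CPM in the vehicle libraries, a 9.37-fold rise (log2 fold change 3.23, SE 0.146, edgeR adjusted p = 3.96e-10). KLK2, which activates the KLK3 protein, had 110, 76.1 and 78.9 CPM under DHT and 7.76, 4.95 and 7.33 CPM under vehicle, a 13.2-fold rise (log2 fold change 3.72, SE 0.195, adjusted p = 1.6e-09). For both genes every DHT library lay far above every vehicle library, and library 1 was the highest of the DHT group. KLK4, which is made in the prostate and in developing enamel, averaged 103 ± 8.33 CPM under DHT and 26.0 ± 1.72 CPM under vehicle (SD, n = 3 each). KLK15 was low but rose too, 1.28 ± 0.204 CPM under DHT and 0.486 ± 0.0386 CPM under vehicle. Of 16 kallikrein genes listed, 5 passed the filter and 4 of these rose, the exception being KLKB1, the plasma kallikrein, at 0.738 CPM under DHT and 0.505 CPM under vehicle (log2 fold change 0.53, adjusted p = 0.222). KLKP1, a pseudogene of the same cluster whose reads may be shared with its relatives, averaged 5.0 CPM under DHT and 0.987 CPM under vehicle. In bulk RNA, more cells that make a transcript and more transcript per cell cannot be told apart, here or below.

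The sequences before KLK3 and KLK2 are shown because these neighbours on chromosome 19 responded most among the kallikreins. They are the 250 bases before the transcription start on the plus strand, from RefSeq (GRCh38.p14), chr19:50854665-50854914 for KLK3 and chr19:50873189-50873438 for KLK2, with the hexamer AGAACA of the androgen response element in capitals (either strand was searched).
KLK3: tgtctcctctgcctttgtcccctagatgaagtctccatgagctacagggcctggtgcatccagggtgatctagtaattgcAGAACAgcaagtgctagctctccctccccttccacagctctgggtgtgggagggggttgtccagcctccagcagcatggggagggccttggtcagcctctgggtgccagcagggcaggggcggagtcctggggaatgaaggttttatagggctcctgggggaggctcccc
KLK2: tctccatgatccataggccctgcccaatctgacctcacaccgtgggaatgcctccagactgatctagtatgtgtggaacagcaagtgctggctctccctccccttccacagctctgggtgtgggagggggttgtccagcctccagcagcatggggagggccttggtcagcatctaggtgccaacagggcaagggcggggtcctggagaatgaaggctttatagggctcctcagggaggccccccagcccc
KLK3 holds the hexamer with its first base 170 bases before the start. KLK2 holds no exact match in the bases shown. Over windows of 250 bases before to 50 after the start, 2 of the 5 tested kallikreins held it, as did 9.3% of the 11127 tested genes with a RefSeq window and 14.9% of all 27305 RefSeq promoters, so a match of this length is common and describes the letters only.

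Other textbook targets of the receptor rose less. TMPRSS2, the serine protease whose promoter is often fused to ETS genes in prostate cancer, had 134, 94.8 and 92.6 CPM in the DHT libraries and 54.1, 44.1 and 48.7 CPM in the vehicle libraries (log2 fold change 1.13, SE 0.124, edgeR adjusted p = 1.94e-06). FKBP5, a cochaperone of steroid receptors, had 113, 93.8 and 102 CPM under DHT and 53.7, 50.8 and 54.8 CPM under vehicle (0.95, SE 0.115, adjusted p = 5.2e-06). In each of these genes the groups did not overlap, and TMPRSS2 was again highest in DHT library 1. With enzalutamide added to DHT, KLK3 averaged 38.7 CPM, KLK2 11.2 CPM, TMPRSS2 55.0 CPM and FKBP5 52.0 CPM. These libraries would be compared with the same DHT or vehicle libraries, so the levels are given side by side, and KLK3 (30.7, 41.6 and 43.8 CPM) and KLK2 (10.1, 12 and 11.6 CPM) stood between DHT and vehicle in every enzalutamide library.

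**Figure D2:**
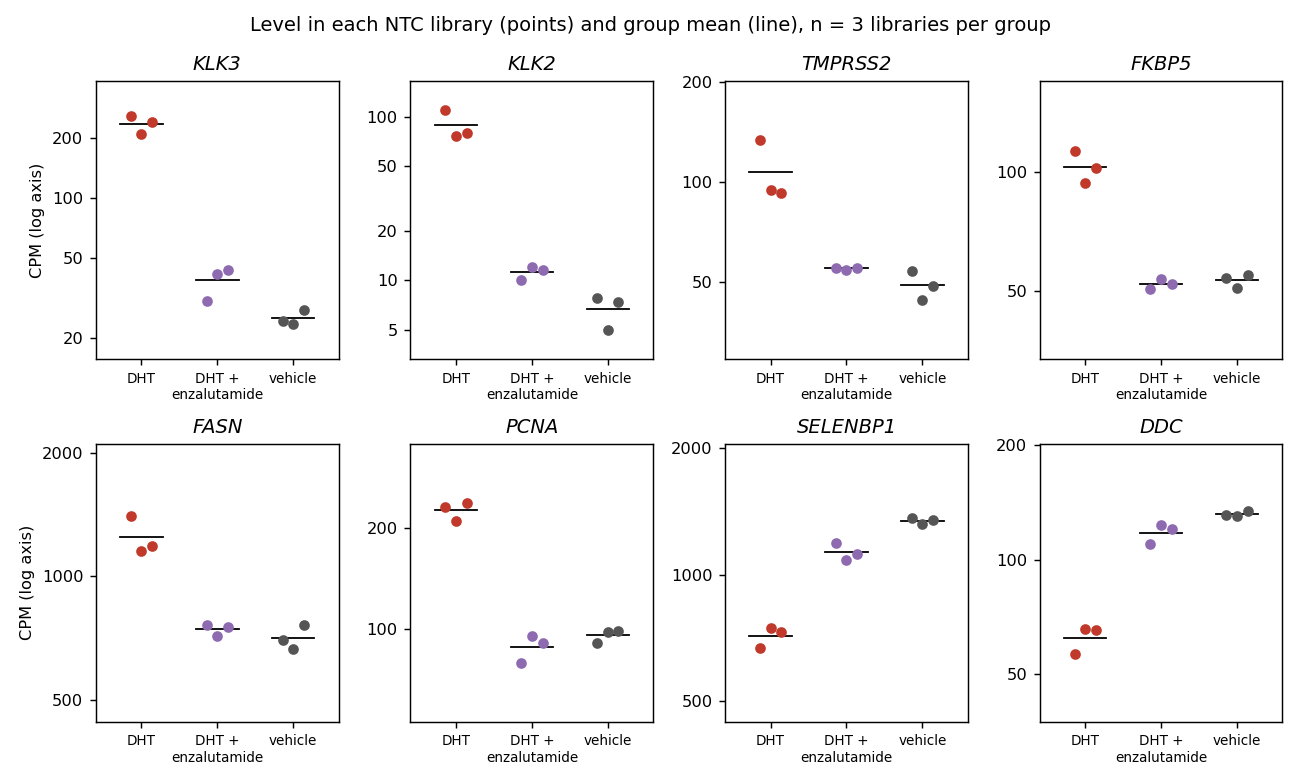
Levels of 8 genes in CPM on a log axis in the 3 DHT, 3 DHT plus enzalutamide and 3 vehicle libraries of NTC cells, as points, with the group mean as a line. KLK3, KLK2, TMPRSS2, FKBP5, FASN and PCNA were higher in every DHT library than in any vehicle library, and SELENBP1 and DDC lower. The enzalutamide means lay nearer to the vehicle than to the DHT means. In KLK3, KLK2 and TMPRSS2 every enzalutamide library lay above every vehicle library, and in SELENBP1 and DDC below.

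A list of 60 genes described as androgen-induced in prostate cells had 58 tested members, of which 41 rose and 0 fell, with a median log2 fold change of 0.69 against -0.0020 for all tested genes and 17.4% of all tested genes rising. Without the libraries numbered 1, 40 rose and 1 fell, and 2 fell with the replicate block or with upper-quartile scaling. TRPM8, a cold-sensing cation channel, led the list at 6.01, 3.94 and 4.25 CPM under DHT and 0.605, 0.424 and 0.397 CPM under vehicle (log2 fold change 3.31, SE 0.322). GNMT, which methylates glycine, averaged 12.2 ± 0.998 CPM under DHT and 3.85 ± 0.304 CPM under vehicle. KCNN2, a calcium-activated potassium channel, averaged 80.2 ± 5.76 CPM under DHT and 31.3 ± 1.25 CPM under vehicle, and the transporter SLC45A3, also called prostein, 118 ± 18.3 CPM under DHT and 45.8 ± 2.70 CPM under vehicle. ALDH1A3, which makes retinoic acid, averaged 89.4 ± 4.72 CPM under DHT and 46.8 ± 2.35 CPM under vehicle. Of a list of 25 genes described as androgen-repressed, all tested, 14 fell and 0 rose, with a median of -0.35, beside 12.5% of all tested genes falling. Without the libraries numbered 1, 13 fell and 1 rose, without DHT library 1 alone 9 fell, and with the block 18 fell and 1 rose. DDC, which makes dopamine and serotonin, had 56.4, 65.7 and 65.3 CPM under DHT and 131, 130 and 134 CPM under vehicle. PLA2G2A, a secreted phospholipase, averaged 18.1 ± 1.03 CPM under DHT and 39.6 ± 5.37 CPM under vehicle, the cholinesterase BCHE 212 ± 12.7 CPM under DHT and 313 ± 30.4 CPM under vehicle, and the neuroserpin gene SERPINI1 24.0 ± 1.08 CPM under DHT and 36.2 ± 1.31 CPM under vehicle (SD, n = 3 each).

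Of 13 nuclear receptors tested, VDR, the vitamin D receptor, was the 1 that rose (27.9 ± 1.39 CPM under DHT, 21.1 ± 0.434 CPM under vehicle). With the replicate block 2 rose and 2 fell, without DHT library 3 2 rose, and with upper-quartile scaling 1 rose and 1 fell. The glucocorticoid receptor gene NR3C1 was low, 1.29 CPM under DHT and 1.93 CPM under vehicle (adjusted p = 0.236). Of 42 coactivators, corepressors and chaperones of the receptor, 11 rose and 5 fell, shares of the order of the background. The rising count was 5 without DHT library 1, 6 without DHT library 3, 6 without vehicle library 1 and 5 without vehicle library 2, the falling count 3 without DHT library 1 or vehicle library 3, and both counts 6 without the libraries numbered 1. With the block 15 rose and 9 fell, and with upper-quartile scaling 6 rose and 10 fell. EZH2, the methyltransferase of Polycomb complex 2, rose to 41.4 ± 1.85 CPM under DHT, against 23.6 ± 0.26 CPM under vehicle. TLE1, a corepressor, fell to 39.3 ± 2.89 CPM, against 56.8 ± 5.70 CPM under vehicle. Of 21 tested genes known as induced by glucocorticoids in many cell types, 2 rose, FKBP5 and the zinc finger gene ZBTB16 (18.4 ± 2.76 CPM under DHT, 10.1 ± 1.18 CPM under vehicle), and 2 fell, KLF9 and DUSP1. With the block, and without the libraries numbered 1, 4 rose and 3 fell, and without DHT library 1 alone 1 fell. Under upper-quartile scaling 2 rose and 3 fell.

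Of called genes whose groups did not overlap and whose log2 CPM averaged 1 or more, the 12 with the largest rises were TUBA3D, CHRNA2, KLK2, KLK3, CTNNA2, F5, ST6GALNAC1, ALPK2, KLKP1, PKMYT1, FAM111B and E2F8. CHRNA2, a nicotinic acetylcholine receptor subunit, had 8.93, 4.58 and 5.77 CPM in the DHT libraries and 0.470, 0.353 and 0.427 CPM in the vehicle libraries (log2 fold change 3.93, SE 0.304). F5, coagulation factor V, had 13.5, 11.9 and 11.3 CPM under DHT and 1.44, 1.48 and 1.62 CPM under vehicle (3.01, SE 0.161). ST6GALNAC1, the sialyltransferase that makes the sialyl-Tn antigen, had 19.9, 18.5 and 17.7 CPM under DHT and 2.65, 2.79 and 1.77 CPM under vehicle (2.97, SE 0.165). All 3 genes were weakly expressed in every vehicle library and several times higher in every DHT library. ALPK2, an atypical kinase, averaged 8.16 ± 0.795 CPM under DHT and 1.06 ± 0.249 CPM under vehicle. CTNNA2, the alpha-catenin of neurons, averaged 3.53 ± 0.0317 CPM under DHT and 0.401 ± 0.269 CPM under vehicle. TUBA3D averaged 4.54 ± 1.23 CPM under DHT and 0.243 ± 0.0517 CPM under vehicle, but it has near-identical copies among the alpha-tubulins, so the assignment of its reads is uncertain. PKMYT1, an inhibitory kinase of CDK1, FAM111B, a protease of replicating cells, and E2F8, a repressor of the E2F family, belong to the cell cycle. They averaged 20.2, 143 and 15.6 CPM under DHT and 4.09, 31.7 and 3.45 CPM under vehicle.

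By the same rule the 12 largest falls had log2 fold changes of -1.73 to -1.43, and these genes were weakly expressed. COL5A1, a collagen chain, had 0.720, 1.85 and 1.00 CPM in the DHT libraries and 2.45, 5.23 and 4.18 CPM in the vehicle libraries (log2 fold change -1.73, SE 0.381, edgeR adjusted p = 0.00212). VWA2, a secreted protein of basement membranes, had 2.44, 5.99 and 4.01 CPM under DHT and 8.40, 14.0 and 13.5 CPM under vehicle (-1.53, SE 0.312). In both genes library 1 was the lowest of either group, and the groups still did not overlap. MATN2, a matrilin of the extracellular matrix, averaged 2.38 ± 0.631 CPM under DHT and 7.25 ± 1.17 CPM under vehicle. CAMK1D, a calcium-dependent kinase, averaged 2.41 ± 0.463 CPM under DHT and 6.89 ± 1.14 CPM under vehicle. PCDH11X, a protocadherin with a near-identical copy on the Y chromosome that makes its reads uncertain, averaged 4.11 ± 1.38 CPM under DHT and 11.5 ± 1.55 CPM under vehicle. The others were CNGA1, C16orf89, MYOZ1, DEGS2, LRRC31, TMPRSS6 and REG4, at 0.656 to 3.51 CPM under DHT and 1.86 to 9.89 CPM under vehicle.

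Genes of the cell cycle rose. Of 56 tested genes of G1/S and DNA replication, 54 rose and 0 fell, with a median log2 fold change of 1.26, and 38 rose at least 2-fold, beside 2.59% of all tested genes. Of 62 genes of G2/M and mitosis, all 62 rose and 58 of them at least 2-fold, with a median of 1.60 and a range of 0.49 to 2.05. Without the libraries numbered 1 the rising counts were 54 and 62. PCNA, the sliding clamp of DNA polymerases, had 231, 209 and 237 CPM in the DHT libraries and 90.6, 97.8 and 98.1 CPM in the vehicle libraries (log2 fold change 1.24, SE 0.0696, edgeR adjusted p = 1.6e-09). FEN1, which trims Okazaki fragments, averaged 113 ± 6.12 CPM under DHT and 35.7 ± 3.47 CPM under vehicle (1.67, SE 0.093). All DHT libraries exceeded all vehicle libraries by a wide margin in both genes. PRIM1, the catalytic primase subunit, averaged 31.3 ± 2.49 CPM under DHT and 12.3 ± 0.228 CPM under vehicle, and RFC4, of the clamp loader, 42.6 ± 1.89 CPM under DHT and 18.4 ± 0.701 CPM under vehicle. TYMS, which makes thymidylate, averaged 103 ± 7.43 CPM under DHT and 31.7 ± 2.10 CPM under vehicle.

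Among mitotic genes, KIF23, a kinesin of the central spindle, had 30.1, 36.1 and 40.3 CPM in the DHT libraries and 7.39, 10.5 and 9.77 CPM in the vehicle libraries (log2 fold change 1.94, SE 0.142, edgeR adjusted p = 2.24e-08). MAD2L1, of the spindle checkpoint, had 61.0, 57.1 and 61.2 CPM under DHT and 20.7, 23.6 and 21.5 CPM under vehicle (1.45, SE 0.1). KIF22, a chromosome-arm kinesin, averaged 66.5 ± 2.66 CPM under DHT and 33.0 ± 0.831 CPM under vehicle, and the condensin subunit NCAPD2 152 ± 11 CPM under DHT and 78.2 ± 6.59 CPM under vehicle. Looked up after the values were seen, because they are common proliferation measures, MKI67 averaged 197 CPM under DHT and 47.9 CPM under vehicle, TOP2A 185 CPM under DHT and 57.0 CPM under vehicle, and CDK1 340 CPM under DHT and 119 CPM under vehicle. With enzalutamide added to DHT, PCNA averaged 88.2 CPM, FEN1 33.7 CPM, KIF23 7.69 CPM and MAD2L1 18.8 CPM. Under vehicle they averaged 95.5, 35.7, 9.22 and 21.9 CPM. None of these 4 genes passed the edgeR test of enzalutamide plus DHT against vehicle. Neither did KLK3 or KLK2, whose enzalutamide libraries all stood above vehicle, so not passing does not show equal levels.

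Of 41 tested genes of homologous recombination and the Fanconi pathway, 36 rose and 0 fell (35 and 0 without the libraries numbered 1), with a median of 1.00. BRCA1, a ligase subunit that steers break repair, had 87.6, 76.2 and 82.8 CPM in the DHT libraries and 22.7, 23.6 and 23.6 CPM in the vehicle libraries (log2 fold change 1.82, SE 0.135, edgeR adjusted p = 2.49e-08). FANCI, which marks crosslinked DNA together with FANCD2, averaged 125 ± 7.85 CPM under DHT and 44.1 ± 5.34 CPM under vehicle. RAD51AP1, an accessory factor of homologous recombination, averaged 35.6 ± 2.92 CPM under DHT and 9.97 ± 0.717 CPM under vehicle, and MDC1, a scaffold at breaks, 100 ± 4.82 CPM under DHT and 45.7 ± 4.22 CPM under vehicle. PARP1 and PARP2, which consume NAD at breaks, averaged 485 ± 21.2 and 57.3 ± 0.544 CPM under DHT and 316 ± 14.7 and 32.4 ± 1.47 CPM under vehicle.

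Of 16 tested genes listed as CDK inhibitors or with the RB family, 6 rose, 1 fell and 9 did not pass. The 1 that fell was TFDP2, which is not a CDK inhibitor (log2 fold change -0.16, edgeR adjusted p = 0.0389). Rising members numbered 3 without DHT library 3 and 3 without vehicle library 3, the falling count 0 without vehicle library 2 and 2 without the libraries numbered 1, with the block 6 rose and 4 fell, and with upper-quartile scaling 3 rose and 4 fell. The largest rises were of CDKN3, a phosphatase of CDKs (21.5 ± 1.65 CPM under DHT, 8.71 ± 0.636 CPM under vehicle), CDKN2C, the INK4 inhibitor p18 (18.4 ± 1.37 CPM under DHT and 9.17 ± 0.375 CPM under vehicle), and RBL1, the pocket protein p107 (28.4 ± 1.28 CPM under DHT and 14.9 ± 0.939 CPM under vehicle). CDKN1A, encoding p21, averaged 191 CPM under DHT and 250 CPM under vehicle and missed the threshold (log2 fold change -0.38, edgeR adjusted p = 0.0515), as did CDKN1B, encoding p27, at 69.0 CPM under DHT and 75.6 CPM under vehicle (-0.13, adjusted p = 0.0869). Of 18 tested histone genes, 0 rose and 5 fell, with a median of -0.23, and the falling count was 3 without DHT library 1 and 6 without the libraries numbered 1. HIST1H2BD averaged 19.6 ± 0.443 CPM under DHT and 24.8 ± 1.70 CPM under vehicle, and HIST1H4H 6.10 ± 1.53 CPM under DHT and 9.28 ± 0.132 CPM under vehicle. Most transcripts of replication-dependent histone genes lack a poly(A) tail, and the libraries were made with a poly(A) mRNA kit, so the counts cover only their polyadenylated part. Their near-identical copies also make the counts of single genes uncertain.

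Promoters of 4 of these genes are shown because these groups share known control elements, the CHR and the CCAAT box of G2/M genes and the E2F site of G1/S genes. The genes were picked after their values were seen, among called genes whose 250 bases hold the E2F motif or, for G2/M genes, both other motifs. That these sequences hold the motifs thus follows from the choice. Each line gives the 250 bases before the start, 5′ to 3′ on the gene's own strand, from RefSeq (GRCh38.p14): E2F1 at chr20:33686386-33686635 (minus strand), MKI67 at chr10:128126424-128126673 (minus), KIF23 at chr15:69414099-69414348 (plus) and ESPL1 at chr12:53268049-53268298 (plus). Capitals mark TTTNGCGC in E2F1, and TTTGAA (the CHR) and CCAAT in the other three, on either strand.
E2F1: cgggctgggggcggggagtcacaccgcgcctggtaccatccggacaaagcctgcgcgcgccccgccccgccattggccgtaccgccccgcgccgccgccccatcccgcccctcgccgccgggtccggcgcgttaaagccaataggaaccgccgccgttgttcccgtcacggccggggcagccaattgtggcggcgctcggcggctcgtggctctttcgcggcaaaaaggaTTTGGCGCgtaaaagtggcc
MKI67: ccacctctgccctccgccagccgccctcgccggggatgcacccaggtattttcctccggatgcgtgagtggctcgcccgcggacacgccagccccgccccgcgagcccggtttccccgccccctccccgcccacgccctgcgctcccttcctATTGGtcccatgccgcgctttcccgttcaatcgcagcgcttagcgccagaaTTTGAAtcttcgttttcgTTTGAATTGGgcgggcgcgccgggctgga
KIF23: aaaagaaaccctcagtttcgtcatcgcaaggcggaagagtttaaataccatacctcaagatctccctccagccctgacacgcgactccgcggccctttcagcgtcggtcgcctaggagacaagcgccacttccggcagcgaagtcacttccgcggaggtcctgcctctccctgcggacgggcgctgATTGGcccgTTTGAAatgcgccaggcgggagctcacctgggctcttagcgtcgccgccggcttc
ESPL1: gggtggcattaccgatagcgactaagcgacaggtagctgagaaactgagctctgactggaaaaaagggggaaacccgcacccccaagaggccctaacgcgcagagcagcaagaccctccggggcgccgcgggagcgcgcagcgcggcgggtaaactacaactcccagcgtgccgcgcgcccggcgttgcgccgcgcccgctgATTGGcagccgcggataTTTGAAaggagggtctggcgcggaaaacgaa
In MKI67 1 of the CHR matches overlaps a CCAAT match. E2F1, an activator of S phase genes, averaged 57.6 CPM under DHT and 14.9 CPM under vehicle, and ESPL1, the separase that opens cohesin rings, 29.6 CPM under DHT and 8.57 CPM under vehicle. Of 52 G2/M genes with a RefSeq window of 300 bases, 37 held TTTGAA (71.2%) and 37 held CCAAT (71.2%), against 9.8% and 36.9% of the 11127 tested genes with a window and 15.4% and 35.7% of all 27305 promoters. Of 48 G1/S genes, 15 held TTTNGCGC (31.2%), against 3.0% of the tested genes, 1.8% of all promoters and 3.8% of the G2/M genes. Of the same 48 genes, 2 held TTTGAA (4.2%) and 23 held CCAAT (47.9%). CCAAT was also found in 68.0% of the cholesterol synthesis windows and in 33.3% of the ribosome biogenesis windows. A high share of CCAAT was thus not particular to the G2/M list. The androgen hexamer AGAACA was found in 7.7% of the G2/M and 6.2% of the G1/S windows, against 9.3% of the tested genes and 14.9% of all promoters. These shares describe the lists and were not tested.

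**Figure D3:**
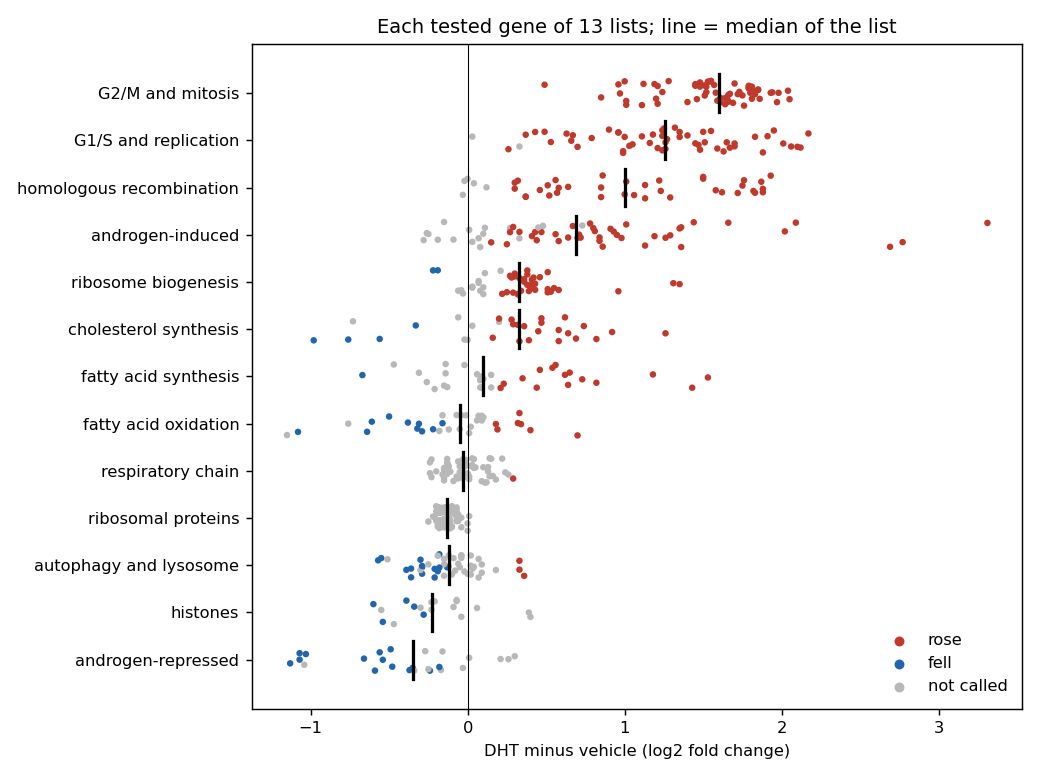
Log2 fold change, DHT minus vehicle in NTC cells, of each tested gene of 13 lists, with genes that rose in red, genes that fell in blue, others in grey and the list median as a black line. The G2/M list lies wholly to the right of 0 with a median of 1.60, while ribosomal proteins crowd near their median of -0.13.

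Most genes of a list of MYC and ribosome biogenesis genes rose. Of 48 tested, 34 rose (70.8%) and 2 fell (4.2%), beside 17.4% and 12.5% of all tested genes. MXD4 was 1 of the 2 that fell. The median log2 fold change was 0.33, and 29 rose and 0 fell without the libraries numbered 1. The falling count was also 0 without DHT library 1 or vehicle library 3 and 1 without DHT library 3 or vehicle library 2. TCOF1, which activates ribosomal DNA transcription, had 72.4, 66.4 and 76.8 CPM in the DHT libraries and 26.9, 27.2 and 30.6 CPM in the vehicle libraries (log2 fold change 1.35, SE 0.0943). NOP56, of the box C/D particle, averaged 235 ± 7.49 CPM under DHT and 160 ± 0.86 CPM under vehicle, RRS1 46.9 ± 2.79 CPM under DHT and 32.9 ± 1.2 CPM under vehicle, and PPAN 43.0 ± 1.68 CPM under DHT and 31.3 ± 1.85 CPM under vehicle. MYC, a known driver of ribosome biogenesis, had 203, 190 and 207 CPM under DHT and 154, 143 and 163 CPM under vehicle (0.38, SE 0.0882, edgeR adjusted p = 0.00308). Its part in these rises was not tested. Of 57 cytosolic ribosomal protein genes, 0 rose and 1 fell, RPL5, with a median of -0.13 and a range of -0.25 to 0.01. RPL5 lost its call without vehicle library 1, DHT library 2 or DHT library 3 (edgeR adjusted p of 0.121, 0.0788 and 0.0687), and 2 fell without DHT library 1. With the block 7 of the 57 fell and with upper-quartile scaling 11 fell, and in neither did any rise.

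Enzymes of lipid synthesis were among the largest gains in counts. Among the genes that gained most CPM were SORD, TUBA1B, FASN and ELOVL5. FASN, the fatty acid synthase, had 1401, 1152 and 1182 CPM under DHT and 698, 664 and 761 CPM under vehicle (log2 fold change 0.82, SE 0.0982). ELOVL5, an elongase of polyunsaturated fatty acids, had 868, 709 and 692 CPM under DHT and 255, 267 and 262 CPM under vehicle (1.53, SE 0.115). In both the DHT libraries lay above the vehicle libraries without overlap, with DHT library 1 the highest. SORD, which turns sorbitol into fructose, averaged 1285 ± 128 CPM under DHT and 683 ± 30.3 CPM under vehicle, and the alpha-tubulin TUBA1B, whose reads may be shared with its paralogs, 1207 ± 54.1 CPM under DHT and 624 ± 33.7 CPM under vehicle.

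Of 30 tested genes of cholesterol synthesis and its control, 20 rose and 4 fell (17 and 4 without the libraries numbered 1), with a median of 0.33. EBP and FDPS, enzymes of the pathway, averaged 58.3 ± 2.85 and 149 ± 7.02 CPM under DHT and 30.8 ± 0.78 and 95.8 ± 0.634 CPM under vehicle. The 4 that fell were the sterol reductase TM7SF2, INSIG2, which holds SREBP in the endoplasmic reticulum, and the sterol exporters ABCA1 and ABCG1. ABCA1 averaged 9.09 ± 1.39 CPM under DHT and 17.9 ± 0.549 CPM under vehicle, and ABCG1 19.1 ± 2.19 CPM under DHT and 32.3 ± 0.527 CPM under vehicle. Of 35 genes of fatty acid synthesis, 15 rose and 1 fell (14 and 1 without the libraries numbered 1). ELOVL7, which lengthens saturated chains, averaged 71.0 ± 12.4 CPM under DHT and 26.4 ± 1.09 CPM under vehicle, and the desaturase FADS1 137 ± 10.1 CPM under DHT and 82.9 ± 1.99 CPM under vehicle. The 1 that fell, ACSL5, was low at 2.22 CPM under DHT and 3.52 CPM under vehicle, and lost its call without DHT library 1 or 2 or vehicle library 2 or 3 (edgeR adjusted p of 0.118, 0.0516, 0.0836 and 0.0549). With the block, and without DHT library 3, 2 fell.

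Fatty acid oxidation went both ways, with 7 genes that rose and 10 that fell of 33 tested, and 4 and 11 without the libraries numbered 1. The number that rose was 4 without DHT library 1 and 4 without vehicle library 2 or 3. Among those that fell, HADHB and ETFB were picked after their values were seen. HADHB, a subunit of the mitochondrial trifunctional protein, had 212, 220 and 220 CPM under DHT and 275, 273 and 266 CPM under vehicle (log2 fold change -0.32, SE 0.0490). ETFB, a subunit of the electron transfer flavoprotein, had 139, 129 and 130 CPM under DHT and 192, 188 and 182 CPM under vehicle (-0.50, SE 0.0773). In both the DHT libraries lay below the vehicle libraries without overlap. Among those that rose, CROT, the peroxisomal carnitine octanoyltransferase, averaged 34.0 CPM under DHT and 25.8 CPM under vehicle (0.40, SE 0.0556), and HADH, a dehydrogenase of the mitochondrial pathway, 141 ± 3.20 CPM under DHT and 112 ± 1.55 CPM under vehicle. PPARGC1B, a coactivator of mitochondrial genes, averaged 16.6 ± 0.829 CPM under DHT and 10.2 ± 1.19 CPM under vehicle. Of 59 subunits of the respiratory chain and cytochrome c, 1 rose and 0 fell, with a median of -0.03. The 1 was CYCS, cytochrome c, at 417 ± 25.6 CPM under DHT and 340 ± 18.3 CPM under vehicle. With the block 7 rose and 2 fell, without the libraries numbered 1 3 rose and 1 fell, and the rising count was 3 without DHT library 2, 4 without vehicle library 1 and 2 without vehicle library 3. The falling count was 1 without DHT library 1, and with upper-quartile scaling 1 rose and 3 fell.

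Of 31 genes of the citric acid cycle, 12 rose and 1 fell, with changes of at most 0.44 on the log2 scale, reached by DLAT of pyruvate dehydrogenase (133 ± 10.0 CPM under DHT, 97.8 ± 0.0985 CPM under vehicle). The rising count was 5 without DHT library 1 and 6 without vehicle library 2, and with the block 2 fell in place of 1. Of 38 genes of glycolysis and the hypoxia response, 12 rose and 2 fell. Rising members numbered 7 without vehicle library 2 and, with the block, 5 fell. HK2, a hexokinase, averaged 53.2 ± 5.25 CPM under DHT and 30.1 ± 1.49 CPM under vehicle, and the enolase ENO1 1297 ± 32.1 CPM under DHT and 1009 ± 42.6 CPM under vehicle, while its neuronal relative ENO2 fell to 19.3 ± 2.97 CPM, against 28.4 ± 1.38 CPM under vehicle. Of 17 polyamine genes, 6 rose and 3 fell. ALDH4A1, of proline breakdown, averaged 67.4 ± 2.08 CPM under DHT and 42.1 ± 1.36 CPM under vehicle, and the spermine synthase SMS 177 ± 20.8 CPM under DHT and 131 ± 5.69 CPM under vehicle, while ODC1, which makes putrescine, averaged 362 CPM under DHT and 325 CPM under vehicle and missed the threshold (0.15, edgeR adjusted p = 0.33). The falling count was 1 without DHT library 1.

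**Figure D4:**
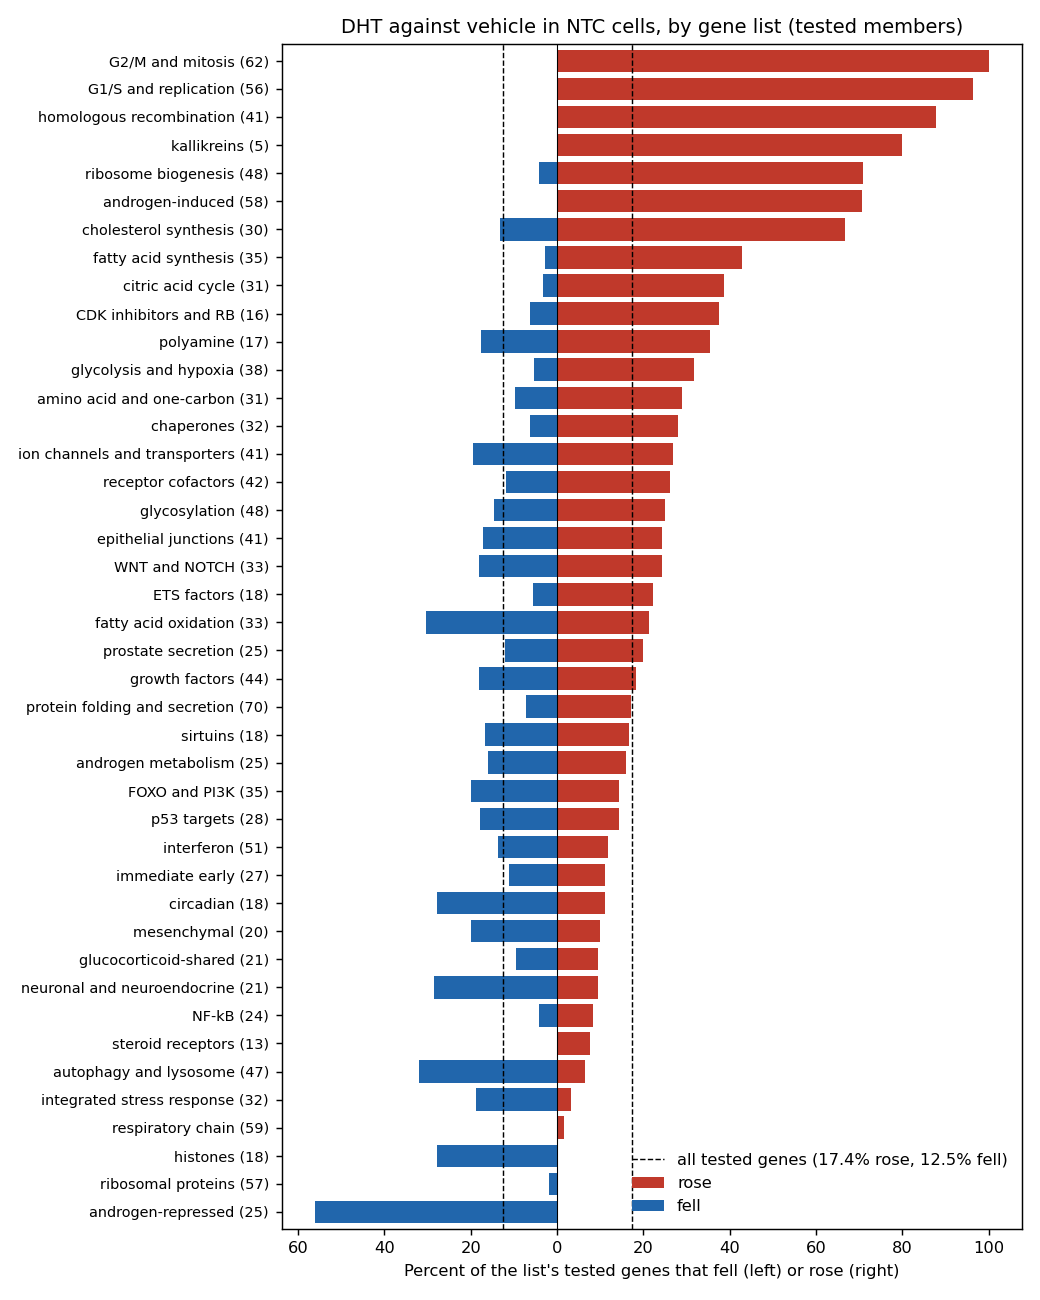
Percent of the tested genes of each list that rose (red, to the right) or fell (blue, to the left) under DHT in NTC cells, with the number tested in parentheses and dashed lines at 17.4% and 12.5%, the shares over all tested genes. The cell cycle, ribosome biogenesis, androgen-induced and cholesterol lists exceed the dashed line for rises by far, and the androgen-repressed, autophagy and fatty acid oxidation lists the line for falls.

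The 5 genes that lost most CPM were EEF2, SELENBP1, FTH1, FOLH1 and UGT2B15. SELENBP1, a selenium-binding methanethiol oxidase, had 671, 748 and 731 CPM in the DHT libraries and 1368, 1320 and 1348 CPM in the vehicle libraries (log2 fold change -0.91, SE 0.0977, edgeR adjusted p = 1.44e-06). FOLH1, the prostate-specific membrane antigen, had 1698, 1717 and 1777 CPM under DHT and 2187, 2181 and 2232 CPM under vehicle (-0.35, SE 0.0609). FTH1, the ferritin heavy chain, averaged 1633 ± 138 CPM under DHT and 2234 ± 159 CPM under vehicle. In these 3 genes the groups did not overlap. EEF2, the elongation factor that moves the ribosome, averaged 4048 ± 230 CPM under DHT and 4682 ± 226 CPM under vehicle, a small change (-0.21) whose call was lost without vehicle library 1 or 3 or DHT library 2 or 3 (adjusted p of 0.103, 0.0931, 0.116 and 0.0825). UGT2B15, which inactivates DHT by glucuronidation, averaged 742 ± 109 CPM under DHT and 1177 ± 139 CPM under vehicle, and belongs to a gene family so alike that its counts are uncertain.

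Of 25 tested enzymes of androgen synthesis and breakdown, 4 rose and 4 fell (16.0% each), near the 17.4% and 12.5% of all tested genes. With the block 5 rose and 7 fell, without the libraries numbered 1 3 rose and 7 fell, and the falling count was 1 without DHT library 1 and 2 without vehicle library 2 or 3. Under upper-quartile scaling 3 rose and 4 fell. CYP11A1, which opens steroid synthesis, rose, with 2.91, 3.54 and 2.87 CPM in the DHT libraries and 0.336, 0.601 and 0.763 CPM in the vehicle libraries (log2 fold change 2.44, SE 0.326). HSD17B6, which can convert androstanediol back to DHT, averaged 1.31 ± 0.179 CPM under DHT and 0.715 ± 0.052 CPM under vehicle. UGT2B28 rose to 20.9 ± 1.64 CPM, against 9.60 ± 0.494 CPM under vehicle, with the same uncertainty as UGT2B15. Of 25 genes of prostate secretion, 5 rose and 3 fell, and with the block 6 rose and 7 fell. Without the libraries numbered 1, 3 rose and 4 fell, and with upper-quartile scaling 5 rose and 5 fell. AZGP1, a zinc-binding glycoprotein of seminal fluid, had 48.7, 30.7 and 34.2 CPM under DHT and 10.0, 7.70 and 7.75 CPM under vehicle (2.16, SE 0.179). PGC, the pepsinogen C of secretions, averaged 2.56 ± 1.04 CPM under DHT and 0.392 ± 0.176 CPM under vehicle. SLC30A4, a zinc transporter, fell to 306 ± 7.40 CPM, against 402 ± 5.66 CPM under vehicle.

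Of 48 glycosylation genes, 12 rose and 7 fell. The number that rose was 6 without DHT library 1 and 6 without vehicle library 2 or 3, the falling count 4 without vehicle library 2 or 3, with the block 16 rose and 11 fell, and with upper-quartile scaling 7 rose and 11 fell. Beside ST6GALNAC1, UAP1, which makes UDP-GlcNAc, rose to 167 ± 34.2 CPM, against 97.5 ± 11.3 CPM under vehicle. The mannosidase MAN1A1 fell to 12.5, 20.3 and 20.5 CPM, against 39.0, 47.9 and 43.9 CPM under vehicle (log2 fold change -1.30, SE 0.201), and the core fucosyltransferase FUT8 to 26.7 ± 0.915 CPM, against 35.6 ± 0.676 CPM under vehicle. Of 70 genes of protein folding and secretion, 12 rose and 5 fell, with a median of 0.02. The rising count was 5 without DHT library 1, 4 without vehicle library 2 and 5 without vehicle library 3, with the block 20 rose and 10 fell, and with upper-quartile scaling 7 rose and 14 fell. PDIA5, a disulfide isomerase, rose to 38.9 ± 2.61 CPM, against 22.4 ± 2.38 CPM under vehicle. HSPA5, the main chaperone of the endoplasmic reticulum, fell to 707 ± 16.7 CPM, against 920 ± 36.6 CPM under vehicle.

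Autophagy and lysosome genes fell more often than they rose, 15 against 3 of 47 tested, beside 12.5% of all tested genes falling and 17.4% rising. The counts were the same without the libraries numbered 1, the falling count was 10 without DHT library 3 and 10 without vehicle library 2, and the rising count 1 without DHT library 3 or vehicle library 1. ATG3, which attaches lipid to LC3, had 92.0, 93.3 and 93.2 CPM in the DHT libraries and 138, 138 and 132 CPM in the vehicle libraries (log2 fold change -0.55, SE 0.0765, edgeR adjusted p = 2.65e-05). The LC3 and GABARAP genes MAP1LC3B and GABARAPL1 averaged 63.6 ± 4.16 and 79.5 ± 1.19 CPM under DHT and 81.4 ± 4.21 and 102 ± 3.08 CPM under vehicle. GAA, the lysosomal alpha-glucosidase, rose to 97.7 ± 2.97 CPM, against 77.8 ± 5.46 CPM under vehicle. Of 32 genes of the integrated stress response 1 rose and 6 fell, and the falling count was 2 or 3 when each of the 6 libraries was left out in turn. Rising members numbered 2 without vehicle library 1 or with the block and 4 without the libraries numbered 1. NUPR1, a stress-induced chromatin protein, averaged 146 ± 5.78 CPM under DHT and 194 ± 3.47 CPM under vehicle, and EIF4EBP1, a brake on cap-dependent translation, 65.3 ± 4.72 CPM under DHT and 48.2 ± 5.45 CPM under vehicle.

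Of 35 genes of the FOXO and PI3K pathway, 5 rose and 7 fell, with 9 and 11 under the block, and the rising count was 3 without DHT library 1 or 2 or vehicle library 1 or 2. INPP4B, a phosphatase that opposes PI3K, rose to 9.96 ± 1.16 CPM, against 4.23 ± 0.153 CPM under vehicle (log2 fold change 1.24, SE 0.158). TXNIP and FOXO3, a thioredoxin inhibitor and a FOXO factor, fell to 275 ± 18.7 and 289 ± 20.7 CPM, against 409 ± 12.6 and 379 ± 17.4 CPM under vehicle. Of 28 targets of p53, 4 rose and 5 fell, among them TP53I3, at 2.48 ± 0.315 CPM under DHT and 4.74 ± 0.35 CPM under vehicle, and SESN1, at 240 ± 20.7 CPM under DHT and 330 ± 21.7 CPM under vehicle. The falling count was 3 without vehicle library 3. Of 44 growth factors and receptors 8 rose and 8 fell (18.2% each), beside 17.4% and 12.5% of all tested genes. EGFR rose to 47.7 ± 1.57 CPM, against 34.5 ± 1.85 CPM under vehicle. ERBB2 fell to 222 ± 8.53 CPM, against 283 ± 7.34 CPM under vehicle, and IGFBP3, a carrier of IGF, fell to 91.7 ± 7.99 CPM, against 136 ± 16.4 CPM under vehicle.

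Of 18 circadian genes 5 fell and 2 rose, and 5 also fell when each of the 6 libraries was left out in turn. NR1D2, a repressor of the clock, had 85.3, 83.9 and 83.6 CPM in the DHT libraries and 132, 130 and 125 CPM in the vehicle libraries (log2 fold change -0.61, SE 0.0635, edgeR adjusted p = 8.55e-07). TEF, CRY2 and PER3 fell to 11.1, 14.3 and 27.2 CPM, against 19.0, 20.2 and 35.7 CPM under vehicle, while the activator ARNTL rose to 8.29 ± 0.486 CPM, against 6.25 ± 0.384 CPM under vehicle. The number that rose was 1 without DHT library 2 and 1 without vehicle library 2. Of 21 neuronal and neuroendocrine genes 2 rose and 6 fell, with 4 and 7 under the block. GRIN3A, an NMDA receptor subunit, had 16.7, 14.1 and 12.9 CPM under DHT and 4.60, 2.76 and 3.02 CPM under vehicle (2.08, SE 0.169), while the neuronal tubulin TUBB3 fell to 31.9 ± 5.38 CPM, against 58.1 ± 8.28 CPM under vehicle. The rising count was 1 without DHT library 2 or 3 or vehicle library 1.

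Of 51 interferon-stimulated and antigen presentation genes 6 rose and 7 fell, near the background, with 9 and 11 under the block. OAS3, an antiviral oligoadenylate synthetase, stood apart with 41.4, 40.6 and 47.9 CPM in the DHT libraries and 13.5, 14.0 and 15.9 CPM in the vehicle libraries (log2 fold change 1.58, SE 0.107, edgeR adjusted p = 1.18e-08). Of 24 NF-kB genes 2 rose and 1 fell, IL1RN, the antagonist of interleukin 1, at 19.9 ± 0.314 CPM under DHT and 34.5 ± 2.30 CPM under vehicle. Rising members numbered 1 without DHT library 1 or 3 or vehicle library 2 or 3, and with upper-quartile scaling 1 rose and 3 fell. Of 41 ion channel and transporter genes 11 rose and 8 fell, and 10 rose and 10 fell with upper-quartile scaling. SLC15A2, a peptide transporter, averaged 6.65 ± 1.08 CPM under DHT and 1.89 ± 0.503 CPM under vehicle. Of 41 epithelial junction genes 10 rose and 7 fell, and 8 rose and 8 fell with upper-quartile scaling. The falling count was 4 without DHT library 1 or 3 or any of the vehicle libraries. KRT19, a simple-epithelial keratin, averaged 3.88 ± 0.0813 CPM under DHT and 1.44 ± 0.246 CPM under vehicle, ST14, the protease matriptase, 145 ± 3.23 CPM under DHT and 108 ± 5.89 CPM under vehicle, and RAB25 69.4 ± 1.67 CPM under DHT and 86.4 ± 2.22 CPM under vehicle.

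Of 18 sirtuin and NAD metabolism genes 3 rose and 3 fell, and 3 rose and 4 fell with upper-quartile scaling. Beside PARP1 and PARP2, NNMT, which methylates nicotinamide, rose to 1.18 ± 0.275 CPM, against 0.425 ± 0.124 CPM under vehicle, and SIRT3, the mitochondrial deacetylase, fell to 21.0 ± 1.2 CPM, against 25.4 ± 1.31 CPM under vehicle (log2 fold change -0.28, edgeR adjusted p = 0.00419). SIRT2, SIRT5, SIRT6 and SIRT7 did not pass, with log2 fold changes of -0.03, 0.02, -0.11 and -0.11. Of 33 genes of the WNT and NOTCH pathways 8 rose and 6 fell, and 6 rose and 7 fell with upper-quartile scaling. The number that rose was 5 without DHT library 2, vehicle library 1 or vehicle library 2 and 4 without DHT library 3 or vehicle library 3, and the falling count 3 without vehicle library 3. FZD5, a WNT receptor, rose to 23.8 ± 1.89 CPM, against 14.5 ± 0.80 CPM under vehicle, and CTNNB1, beta-catenin, fell to 410 ± 2.06 CPM, against 477 ± 0.643 CPM under vehicle. Of 20 mesenchymal genes 2 rose and 4 fell, with COL5A2 at 54.6 ± 3.31 CPM under DHT and 97.3 ± 1.13 CPM under vehicle and FN1, fibronectin, at 466 ± 16.8 CPM under DHT and 375 ± 33.1 CPM under vehicle.

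The calls of 4 further lists rested on few libraries. Of 32 chaperones 9 rose and 2 fell, but the rising count was 2 without DHT library 1, 2 without vehicle library 2, 4 without DHT library 3 and 4 without the libraries numbered 1, and the falling count was 1 without vehicle library 2. With upper-quartile scaling 4 rose. AHSA1 and CCT5, a cochaperone of HSP90 and a subunit of the TRiC folding chamber, averaged 200 ± 14.0 CPM under DHT and 167 ± 4.15 CPM under vehicle and 412 ± 26.2 CPM under DHT and 352 ± 11.8 CPM under vehicle. Of 18 ETS factors 4 rose and 1 fell, but 0 rose without DHT library 1 or vehicle library 2, 2 rose without DHT library 2 or 3 or vehicle library 3, and 0 fell without DHT library 1 or 2 or vehicle library 2 or 3. With upper-quartile scaling, and without the libraries numbered 1, 1 rose and 3 fell. With the block 6 rose and 3 fell. Of 31 amino acid and folate genes 9 rose and 3 fell, with 14 and 2 without the libraries numbered 1, and the falling count was 1 without any of the DHT libraries or without vehicle library 3 and 0 without vehicle library 1. Of 27 immediate early genes 3 rose and 3 fell, 1 fell without vehicle library 2, with the block 5 rose and 6 fell, and with upper-quartile scaling 2 rose and 7 fell. FOS, of the AP-1 factor, averaged 0.351 ± 0.125 CPM under DHT and 0.780 ± 0.177 CPM under vehicle, a fall that lost its call without DHT library 3 or vehicle library 2 (edgeR adjusted p of 0.0605 and 0.0526).

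The same contrast in knockdown 10 cells shared no library with the one in NTC cells. There 1937 genes rose (13.3%) and 1299 fell (8.92%). Of the 2529 genes that rose in NTC cells 1472 also rose in knockdown 10, 58.2% of the NTC list and 76.0% of the knockdown list, and of the 1823 that fell 830 also fell, 45.5% and 63.9%. Of the 377 genes that rose 2-fold in NTC cells, 346 rose in knockdown 10 (91.8%), while of the 148 that fell 2-fold 67 fell there (45.3%). For the 36 genes named as receptor targets, largest changes or largest gains and losses, the change had the same sign in knockdown 10, and 32 were called there. The difference between the responses was tested for these genes, and none passed, beside 0.0412% of all tested genes with a higher and 0.158% with a lower response in knockdown 10, with edgeR adjusted p from 0.18 to 0.993. With the replicate block, KLK3 and VWA2 passed, with a log2 difference, knockdown 10 minus NTC, of 0.75 each (SE 0.19 and 0.15, edgeR adjusted p = 0.0437 and 0.0134). Among the other genes named, the difference passed without the block for 7, and it was read for these after their values were seen. These 7 had been named by the strength of their call in NTC cells, and that response enters the difference. KLK4 responded more in knockdown 10, with a log2 fold change of 3.23 there and 1.98 in NTC cells (difference 1.25, SE 0.15, edgeR adjusted p = 0.00209). The replication genes PCNA and PRIM1, the condensin subunit NCAPD2 and the desaturase FADS1 responded less, with log2 fold changes of 0.73, 0.72, 0.39 and 0.16 in knockdown 10 and 1.24, 1.35, 0.96 and 0.73 in NTC cells (adjusted p of 0.0394, 0.0235, 0.0235 and 0.0265). POLH, a translesion polymerase, had -0.07 in knockdown 10 and 0.51 in NTC cells, and IL1RN had -0.18 in knockdown 10 and -0.80 in NTC cells (adjusted p = 0.0235 each). All 7 also passed with the block. Of the 7, KLK4 alone passed when each of the 12 DHT and vehicle libraries was left out in turn and without the libraries numbered 1 (adjusted p from 1.34e-05 to 0.0151).

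The deposited mean transcript length of a gene, which moves when the mixture of its isoforms moves, shifted at an adjusted p under 0.05 (limma) for 10 of 4407 genes, 5 longer (0.113%) and 5 shorter (0.113%) under DHT. A proxy of fragment length, the median bases that the counting program took off each transcript, also differed between the groups. It was 252.5, 239.1 and 237.5 in the DHT libraries and 225.1, 224.0 and 233.1 in the vehicle libraries. Its part in the shifts was not tested. The number was 21 among genes with a mean count of at least 1000, 2 with only the 6 libraries fitted and 4 or 5 without DHT library 1, 2 or 3 or vehicle library 2, and 6 without vehicle library 1. Of the 10, 9 shifted by at most 2.9%, and OXR1, looked up after its values were seen, averaged 3767 bases under DHT and 3388 under vehicle, a shift of 11% (limma adjusted p = 0.0306). MCM7, a subunit of the replicative helicase, averaged 2830 bases under DHT and 2847 under vehicle, and UNG, the uracil-DNA glycosylase, 2096 bases under DHT and 2124 under vehicle, with shifts of -0.63% and -1.3%. SARS, the seryl-tRNA synthetase, averaged 2034 bases under DHT and 2012 under vehicle, a shift of 1.1%. SPECC1 averaged 3380 bases under DHT and 3482 under vehicle, a shift of -2.9%. NET1 and UGT2B15 shifted by 0.28% and -0.87%.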

How the data were processed

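RNA of 24 LNCaP samples in 8 groups of 3 was sequenced from poly(A) mRNA libraries, and 18 of these, all from stripped serum, entered the fit, while those grown in full serum were not used here. The authors deposited, per gene and library, RSEM expected counts, TPM values and mean transcript lengths (in bases, among other values). Per the submitters' processing notes, CASAVA 1.8.2, RSEM 1.2.31 and the hg19 build were used, and the aligner is not given in the sources used here. The kit is stranded, per the labels' protocols, but the strand setting of the counting is not given in the sources used here.

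Expected counts were rounded and tested with edgeR 4.0.16 (R 4.3.3): TMM scaling, filterByExpr by group, and a quasi-likelihood F test of the DHT minus vehicle contrast in 1 fit of 6 groups of 3, with Benjamini-Hochberg adjustment over 14558 genes and a threshold of 0.05. CPM values are TMM-scaled. Levels of different genes are comparable only by TPM. The precision is set by 3 libraries a group of 27981001 to 32952609 counts. Shifts of transcript length were tested with limma 3.58.1 on log2 lengths of 4407 genes with a mean count of at least 200 and at least 50 in each library. The steps were tested on simulated data.

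The 42 gene lists described and the genes named were chosen with earlier results of these data known. Named are SIRT1, 4 receptor targets, the 12 highest and 12 lowest fold changes among called genes (average log2 CPM at least 1, groups not overlapping), the 5 largest gains and losses in CPM, up to 4 called members of each list with the lowest adjusted p (in lists under 20 members any member), and the 6 strongest length shifts. CDK1, MKI67, TOP2A, E2F1, ESPL1, ODC1, TM7SF2, INSIG2, VIM, HADHB, ETFB and OXR1 were named after their values were seen.

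Deviations from the group means correlated between DHT and vehicle libraries of the same number (0.708, 0.543 and 0.393 over 10262 genes with log2 CPM of at least 3). Pairs of other numbers ranged from -0.584 to 0.254, with 0.254 for DHT 2 and vehicle 3 and 0.174 for DHT 3 and vehicle 2. Each DHT library thus correlated most with the vehicle library of its number, which the labels do not explain. Pairing of libraries 2 and 3 apart from library 1 was not tested. Alternatives were other scalings, no filter, DESeq2 1.42.0, limma on log2(TPM + 1), fewer libraries, the replicate block and left-out libraries. A few genes that the rule names are not reported here.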

Additional observations from a re-analysis of the deposited data

Results flagged for a closer look

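The test of the difference in DHT response between knockdown 10 and NTC cells passed in 7 of the 191 named genes tested. Over all tested genes, 0.0412% had a higher and 0.158% a lower response in knockdown 10. These 7 had been named by the strength of their call in NTC cells, and that response enters the difference. Each result is given as the log2 difference, knockdown 10 minus NTC. It was 1.25 for KLK4 and 0.62 for IL1RN, which fell in NTC cells. It was -0.51 for PCNA, -0.63 for PRIM1, -0.56 for NCAPD2, -0.57 for FADS1 and -0.57 for POLH. With libraries left out, the edgeR adjusted p reached 0.0151 for KLK4 at most and 0.0731 to 0.137 at most for the other 6 genes, each of which lost its call in 5 to 10 of 14 alternatives.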

How the results depend on the processing

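The counts of genes that rose, and of genes that rose 2-fold, stayed within 1.5 times of 2529 and 377 under every alternative run. With limma on log2(TPM + 1), which differs in values, scaling and test at once, 1163 genes fell in place of 1823, and 20 in place of 148 fell 2-fold. Leaving out 1 of the 6 libraries gave 1889 to 2369 genes that rose, 1234 to 1602 that fell, 359 to 389 that rose 2-fold and 93 to 179 that fell 2-fold, the 93 without DHT library 1. With the replicate block 3232 rose, among them all 2529, and 2627 fell, among them all 1823, with 387 and 180 at 2-fold. Of the genes the rule names, the block changed the call of SIRT1 and of NET1 (log2 fold change -0.16, edgeR adjusted p of 0.0398 with the block and 0.0905 without it). The block moved the number of genes whose response differed between knockdown 10 and NTC cells to 427, in place of 29. That number was 5 to 90 with 1 library left out, the 5 without DHT library 3 of NTC cells and the 90 without DHT library 2 of knockdown 10, and 8 without the libraries numbered 1, settings chosen after the data were seen. It was 7 or 8 without DHT library 1 or any vehicle library of NTC cells or vehicle library 3 of knockdown 10, 13 and 16 without vehicle libraries 2 and 1 of knockdown 10, 70 and 19 without its DHT libraries 1 and 3, and 21 without DHT library 2 of NTC cells. The number of transcript length shifts was 10, 21 among genes with a mean count of at least 1000, 2 with only the 6 libraries fitted, 15 with the block and 4 to 9 with 1 library left out. The causes were not tested. Of 185 named genes, 166 kept direction and call in all 15 alternatives, 19 lost the call in at least 1 and 0 reversed. These 185 were all called to begin with, most were chosen for strong changes, and SIRT1 and genes named only for their length are left out. Of the fifth of genes with the lowest level 12.8% were called, and the part of depth in this was not tested.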

Other observations

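Grouped by the stem of their symbols, a grouping made after the values were seen and given as a description, 17 of 20 tested nucleoporin genes (NUP) rose, with a median log2 fold change of 0.46, beside 17.4% of all tested genes. Nucleoporins form the pores of the nuclear envelope. Of 10 EXOSC genes, which encode the RNA exosome, 7 rose, with a median of 0.31, and of 14 ALG genes, which build the lipid-linked sugar of N-glycans, 7 rose. Of 17 genes of the protocadherin beta cluster (PCDHB), 0 rose and 7 fell, with a median of -0.41, beside 12.5% of all tested genes. Those genes are near-identical in parts, so their counts are uncertain.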
